A study of Danio rerio with 6 samples.

Results

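A set of 10 genes of the red blood cell programme was followed in RNA-seq libraries from the tail region of zebrafish (Danio rerio) embryos. They are 6 blood transcription factors (gata1a, tal1, lmo2, klf17, nfe2 and gata2a), the early blood and lateral mesoderm gene drl, the heme enzyme genes alas2 and urod, and the red cell membrane gene slc4a1a. They were picked by gene name, without globins, and each of the 10 names had 1 row among the 32520 genes of the deposited tables. The choice of the 10, and of the gene lists used below, was made with earlier results of these data known. Their counts are therefore set beside the shares of all tested genes as a description, without a test over the set. Counts were high enough for a test in 9 of the 10, and the low counts of nfe2 kept it out of the test over all controls.

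The tissue lay posterior to the last somite at 16 hours post fertilisation. The first group, here called morphants, consisted of 3 libraries from embryos injected with a published sall4 morpholino, an antisense oligomer against the mRNA of the zinc finger gene sall4. The second group consisted of 3 controls: control 1 came from embryos that received a scrambled morpholino, and controls 2 and 3 from non-injected embryos. The labels name no strain and do not say whether libraries came from separate clutches or how many embryos were pooled, so the p-values reflect the spread among these libraries alone, and that spread may be technical.

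In zebrafish the first red cells arise from stripes of posterior lateral plate mesoderm that later join in the intermediate cell mass. Tal1 and Lmo2 act together in one protein complex early, in precursors of both blood and vessels, and Gata1 then drives the erythroid genes proper. Developing red cells make heme through a chain of enzymes opened by an aminolevulinate synthase, whose erythroid form is Alas2, and place the anion exchanger Slc4a1, or band 3, in their membrane.

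Total counts per library ranged from 18626513 to 42423495, and reads were found for 21538 to 24721 genes. The median SD of log2 CPM within a group was 0.59 among morphants and 0.25 among controls, and the deviation of a gene from its mean went with gene length (Spearman correlation across genes −0.42 in morphant 1 and 0.43 in morphant 2). Tailbud markers were abundant in every library, with tbxta between 460.9 and 709.2 CPM, while the heart muscle gene myl7 had no read in any. The sall4 mRNA itself lay between 974.5 and 1390 CPM in morphants, against 1110 CPM in the scrambled control and 1312 and 1347 CPM in the non-injected controls; a morpholino need not lower the level of its target's mRNA, so these values do not check the knockdown. CPM are read counts scaled to a common depth, on library sizes corrected by the trimmed mean of M-values (TMM). Of 17803 tested genes 5, or 0.0281%, were higher in morphants past an adjusted p of 0.05 (edgeR's quasi-likelihood test with Benjamini-Hochberg adjustment over all tested genes), and 0 were lower, with 1719 at an unadjusted p under 0.05 and 336 calls by DESeq2. Without morphant 2 the count was 1534, without morphant 1 it was 19, and without morphant 3 or any 1 of the controls it was 0. Over all tested genes the log2 fold change had a median of 0.12, against which the values below are to be read.

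None of the 9 tested genes passed that threshold in edgeR, and none passed in DESeq2, where 0.928% of genes were called higher and 0.961% lower. At an unadjusted p under 0.05 edgeR had 3 of the 9 higher (slc4a1a, alas2 and drl) and 0 lower, against 4.47% of all tested genes higher and 5.19% lower. Without morphant 1, 0 of the 9 reached that level in either direction, against 2312 of all 18548 genes tested in that fit. Without morphant 2, 5 of the 9 did in either direction, against 6101 of 18125. Their median log2 fold change was 0.93. All 3 morphants lay above all 3 controls in 5 of the 9 genes (gata1a, drl, alas2, urod and slc4a1a), against 7.77% of all tested genes, and in 0 of the 9 did all morphants lie below, against 9.18%. In the same 5 genes the morphants were highest, the non-injected controls next and the scrambled control lowest, with no overlap. The share of all tested genes with this order was not computed. Because the tissue was sequenced in bulk, fewer cells of a type and less RNA per cell cannot be told apart in any of these values.

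**Figure D1:**
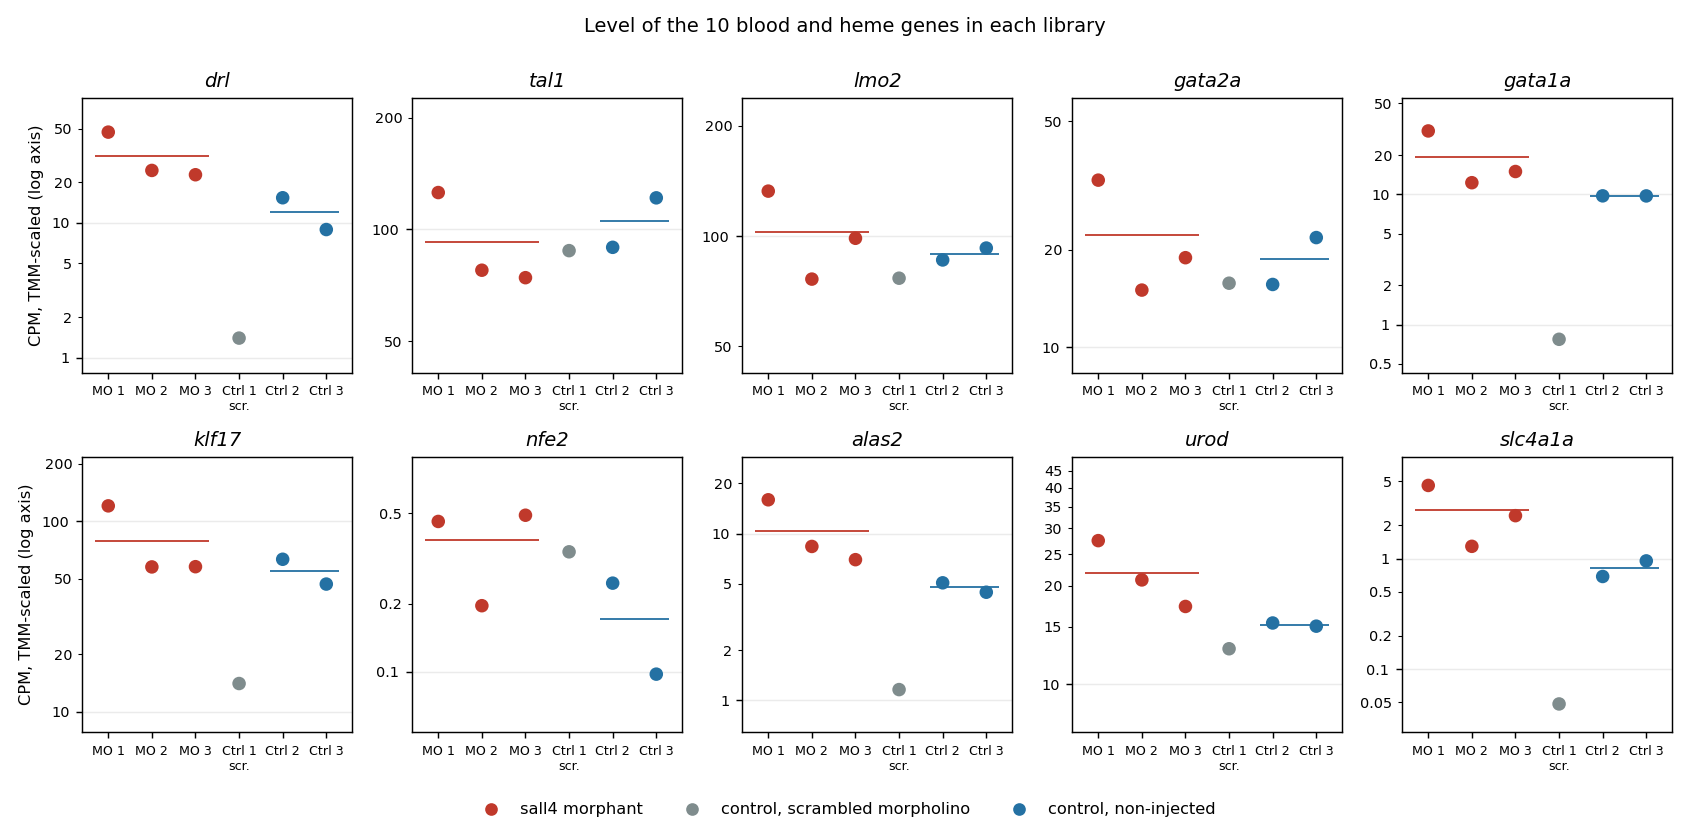
Level of each of the 10 genes in CPM on TMM-scaled libraries (log axes, 1 point per library), with lines at the mean of the 3 morphants (red) and of the 2 non-injected controls (blue). The scrambled control (grey) is the lowest of all 6 libraries in 6 genes, a count without a computed share over all genes. All morphants lie above all controls in gata1a, drl, alas2, urod and slc4a1a.

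The regulators of the earliest blood and vessel precursors, tal1, lmo2 and gata2a, had levels that overlapped between morphants and controls. The basic helix-loop-helix gene tal1 (ENSDARG00000019930) stood at 125.7, 77.7 and 74.2 CPM in morphants 1, 2 and 3, against 87.7 CPM in the scrambled control and 89.5 and 121.7 CPM in the non-injected controls. Its highest value was in morphant 1 and its lowest in morphant 3, so the groups overlapped fully. Its log2 fold change was −0.11 (edgeR adjusted p = 0.90, SE 0.31), and the sign turned in 3 of 17 alternative settings.

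The LIM domain gene lmo2 (ENSDARG00000095019), whose product bridges Tal1 and Gata factors, had 132.7, 76.3 and 98.7 CPM in morphants 1 to 3, against 76.8 CPM in the scrambled control and 86.1 and 92.8 CPM in the non-injected controls. Morphant 2 was the lowest library of all and morphant 1 the highest. For lmo2 the log2 fold change was 0.27 (edgeR adjusted p = 0.73, SE 0.28). The GATA factor gene gata2a (ENSDARG00000059327), used in blood progenitors, in endothelium and in some spinal neurons, had 32.9, 15.0 and 18.9 CPM in morphants 1 to 3, against 15.8 CPM in the scrambled control and 15.6 and 21.9 CPM in the non-injected controls. Morphant 1 lay above all controls, morphant 2 just below them and morphant 3 among them. The log2 fold change of gata2a was 0.32 (edgeR adjusted p = 0.74, SE 0.36), and without morphant 1 it was −0.06.

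The erythroid master regulator gata1a (ENSDARG00000013477) showed another pattern over the libraries. It stood at 30.7, 12.3 and 15.0 CPM in morphants 1, 2 and 3, against 0.772 CPM in the scrambled control and 9.74 and 9.73 CPM in the non-injected controls. The morphants held 467, 314 and 367 reads of the gene, against 16 in the scrambled control and 198 and 398 in the non-injected controls. The scrambled library thus lay far below all others, the non-injected pair agreed closely, and morphants 2 and 3 lay above that pair, by less than morphant 1. Over all controls the log2 fold change was 1.51 (edgeR adjusted p = 0.57, SE 0.79). Set against the non-injected controls alone it was 0.98 (edgeR adjusted p = 0.97, SE 0.49). Against the scrambled control alone it was 4.62 (edgeR adjusted p = 0.99, SE 0.98), in a fit that gives this single library the spread of the morphants.

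The zinc finger gene drl (ENSDARG00000078004), or draculin, marks lateral plate mesoderm and then early blood. It had 47.0, 24.5 and 22.7 CPM in morphants 1 to 3, against 1.40 CPM in the scrambled control and 15.3 and 8.92 CPM in the non-injected controls. All morphants were above all controls, and the scrambled control was again the lowest. For drl the log2 fold change was 1.87 over all controls (edgeR adjusted p = 0.47, SE 0.73) and 1.36 over the non-injected controls (edgeR adjusted p = 0.96, SE 0.49).

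The 3 related genes drll.1, drll.2 and drll.3 neighbour drl on chromosome 5 in RefSeq's gene table of the assembly GRCz12tu. Reads of such relatives may be split between copies, so the 4 counts are not independent of one another. All 4 had higher values in every morphant than in every control (7.77% of all tested genes did), with a median log2 fold change of 1.78. By edgeR and by DESeq2 0 of the 4 passed, with 4 higher at an unadjusted p under 0.05 in edgeR, against 4.47% of all tested genes. The values of drll.1 were 18.6, 11.3 and 11.4 CPM in morphants, against 0.821 CPM in the scrambled control and 6.30 and 2.96 CPM in the non-injected controls. Those of drll.3 were 11.3, 9.55 and 10.2 CPM in morphants, against 1.40 CPM in the scrambled control and 6.44 and 3.69 CPM in the non-injected controls.

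The Krüppel-like factor gene klf17 (ENSDARG00000038792) acts in zebrafish primitive red cells and is also known from the hatching gland. It had 120.4, 57.5 and 57.7 CPM in morphants 1 to 3, against 14.0 CPM in the scrambled control and 63.1 and 46.8 CPM in the non-injected controls. Morphants 2 and 3 lay between the non-injected controls, morphant 1 was above them and the scrambled control was below. Its log2 fold change was 0.93 (edgeR adjusted p = 0.60, SE 0.55), and it was 0.48 without morphant 1 and 0.51 without the scrambled control. The hatching enzyme gene he1.1 had 67.5, 4.58 and 58.6 CPM in morphants, against 3.33 CPM in the scrambled control and 2.21 and 152.5 CPM in the non-injected controls. Both genes were low in the scrambled control and klf17 was highest in morphant 1, while in morphant 2 and control 2 he1.1 was low and klf17 was not. The hatching gland list as a whole did not share the low value of the scrambled control. Its 8 genes summed to 768.2 CPM there, against 831.8 and 946.9 CPM in the non-injected controls. In the scrambled control 3 of the 8 lay below both non-injected controls and 3 above both, against 34.5% and 33.9% of all tested genes. The choice of he1.1 followed a look at its values, and the part of hatching gland in klf17 was not tested.

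The NF-E2 subunit gene nfe2 (ENSDARG00000020606), which in mammals serves globin and platelet genes, was barely detected. Its read counts were 7, 5 and 12 in morphants 1 to 3, against 7 in the scrambled control and 5 and 4 in the non-injected controls. No difference between groups was detectable at this depth.

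Heme synthesis genes gave a graded picture. The erythroid aminolevulinate synthase gene alas2 (ENSDARG00000038643) had 16.0, 8.38 and 6.98 CPM in morphants 1 to 3, against 1.16 CPM in the scrambled control and 5.07 and 4.45 CPM in the non-injected controls. Every morphant was above every control, and morphant 1 stood apart at the top. For alas2 the log2 fold change was 1.54 over all controls (edgeR adjusted p = 0.44, SE 0.57) and 1.12 over the non-injected controls (edgeR adjusted p = 0.97, SE 0.48). The housekeeping form of the same enzyme, alas1, had 32.5, 52.1 and 30.8 CPM in morphants, against 52.4 CPM in the scrambled control and 40.2 and 64.6 CPM in the non-injected controls. Its groups overlapped, and its log2 fold change was −0.45 (edgeR adjusted p = 0.64, SE 0.32).

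The gene urod (ENSDARG00000006818), encoding uroporphyrinogen decarboxylase of the middle of the pathway, varied far less. It had 27.5, 20.9 and 17.3 CPM in morphants 1 to 3, against 12.8 CPM in the scrambled control and 15.4 and 15.1 CPM in the non-injected controls. The morphants were above the controls in every case, but by a small margin in morphant 3. Its log2 fold change was 0.60 (edgeR adjusted p = 0.55, SE 0.29).

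All 10 heme synthesis genes were tested, and by edgeR 0 passed over all genes in either direction, with 3 higher and 0 lower at an unadjusted p under 0.05, against 4.47% and 5.19% of all tested genes. In 6 of the 10 (alas2, hmbsa, hmbsb, urod, cpox and ppox) every morphant was above every control, against 7.77% of all tested genes, and over the list the median was 0.60. DESeq2 called 1 higher, hmbsb (adjusted p = 0.010), against 0.928% of all tested genes. This hydroxymethylbilane synthase gene had 24.1, 15.6 and 15.3 CPM in morphants, against 4.06 CPM in the scrambled control and 8.26 and 5.99 CPM in the non-injected controls, and its edgeR adjusted p was 0.22 (0.031 without morphant 2). The fit without morphant 2, quoted here and below, called 1534 of 18125 tested genes. Without morphant 3 or any 1 of the controls, 0 genes of the whole table passed. The coproporphyrinogen oxidase gene cpox had 81.2, 36.7 and 36.2 CPM in morphants, against 8.25 CPM in the scrambled control and 30.3 and 21.5 CPM in the non-injected controls, with a log2 fold change of 1.36 (edgeR adjusted p = 0.46, SE 0.52). Ferrochelatase, the last enzyme, had groups that overlapped (fech, log2 fold change 0.32, edgeR adjusted p = 0.81, SE 0.49).

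**Figure D2:**
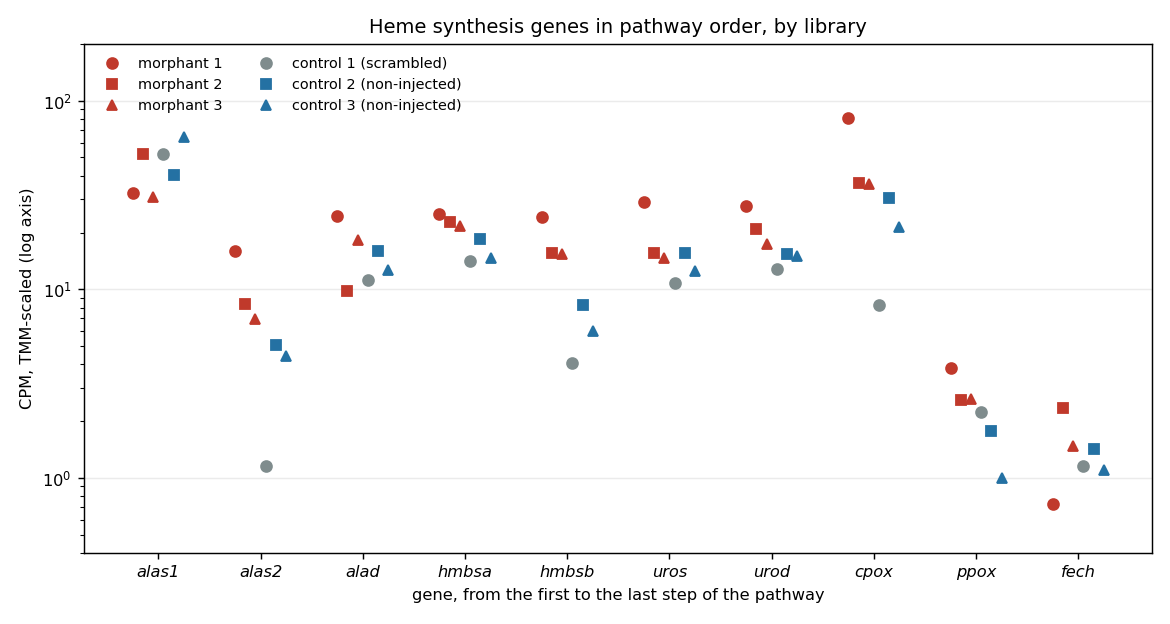
Levels of the 10 heme synthesis genes in CPM on TMM-scaled libraries (log axis, 1 point per library), ordered by pathway step. In alas2, hmbsa, hmbsb, urod, cpox and ppox all 3 morphants lie above all controls. In alas2, hmbsa, hmbsb, uros, urod and cpox the scrambled control is the lowest library, a pattern not counted over all genes.

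The anion exchanger gene slc4a1a (ENSDARG00000012881), a late marker of red cell membrane, had few reads. There were 70, 33 and 60 reads in morphants 1 to 3, against 1 in the scrambled control and 14 and 39 in the non-injected controls. On TMM-scaled libraries these were 4.60, 1.29 and 2.45 CPM in morphants, against 0.0483 CPM in the scrambled control and 0.689 and 0.953 CPM in the non-injected controls. Each morphant was above each control, with morphant 2 close to control 3. Its log2 fold change of 2.23 (edgeR adjusted p = 0.44, SE 0.81) was the largest among the 9 tested genes, and over the non-injected controls it was 1.72 (edgeR adjusted p = 0.97, SE 0.66).

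**Figure D3:**
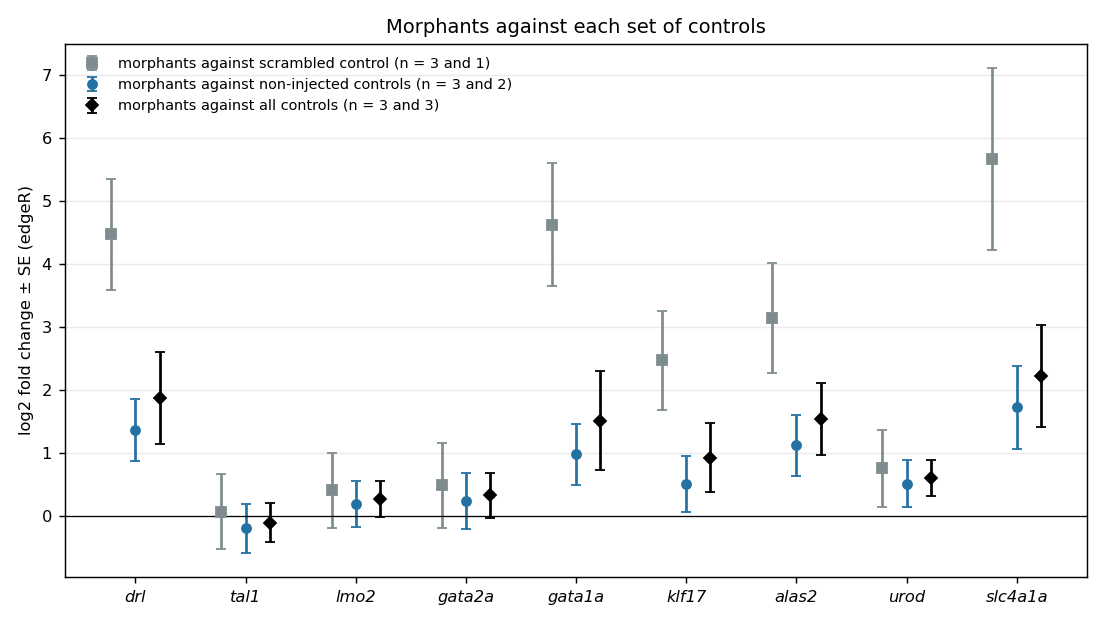
Log2 fold changes (edgeR, bars are standard errors) of the 9 tested genes for morphants against the scrambled control, the non-injected controls and all controls. For gata1a the 3 values are 4.62, 0.98 and 1.51, while for tal1, lmo2 and gata2a they lie close together near 0.

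The spread among the controls was larger than the step to the morphants for several of these genes. In the scrambled control gata1a stood at 0.0794 times the pooled level of the non-injected controls (95% exact interval 0.0451 to 0.130), drl at 0.127 times (0.0842 to 0.184) and alas2 at 0.249 times (0.157 to 0.378). The same ratio was 0.269 for klf17 (0.238 to 0.304) and 0.0558 for slc4a1a (0.00139 to 0.325), the last from 1 read. The intervals cover counting error only, and 1 scrambled library gives no replicate check.

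These 5 genes were below 0.5 times the non-injected level, a limit chosen after the values were seen, against 4.39% of all tested genes. For tal1, lmo2, urod and gata2a the ratio lay between 0.790 and 0.848. The scrambled control was below both non-injected controls in 8 of the 9 tested genes, against 34.5% of all tested genes, and above both in 0 of the 9, against 33.9%. Among all 17803 ratios, ranked from the lowest, slc4a1a stood at rank 62, gata1a at 74, drl at 120, alas2 at 221 and klf17 at 246.

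The mean of the morphants over the mean of the non-injected controls was 1.98 for gata1a, 2.59 for drl, 2.19 for alas2, 3.39 for slc4a1a, 1.44 for urod and 1.43 for klf17, and it was 1.19 for gata2a, 1.15 for lmo2 and 0.876 for tal1. All 3 morphants lay above both non-injected controls in 5 of the 9 genes, against 9.48% of all tested genes, and below both in 0 of the 9, against 10.7%. By edgeR 0 of the 9 passed in this comparison, with 2 at an unadjusted p under 0.05, and 0 of 18457 genes tested passed, with 865, or 4.69%, at an unadjusted p under 0.05. Against the scrambled control alone nfe2 met the filter too (log2 fold change 0.15), and 0 of the 10 passed, with 5 at an unadjusted p under 0.05, against 3.12% of the 19406 genes tested. The 9 genes had a median log2 fold change of 2.47 against the scrambled control (1.61 with nfe2) and of 0.52 over the non-injected controls.

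Ratios between genes within a library do not depend on how libraries are scaled. Per length, in the deposited FPKM (fragments scaled to gene length and library depth), gata1a over tal1 was 0.308, 0.199 and 0.255 in morphants 1 to 3, against 0.0111 in the scrambled control and 0.137 and 0.101 in the non-injected controls. Every morphant had more gata1a per tal1 than any control, and the scrambled control had the least. The ratio of gata1a to lmo2 had the same order, with 0.199, 0.139 and 0.131 in morphants, against 0.00867 in the scrambled control and 0.0974 and 0.0903 in the non-injected controls. These ratios were chosen after the values were seen and are given without a test.

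**Figure D4:**
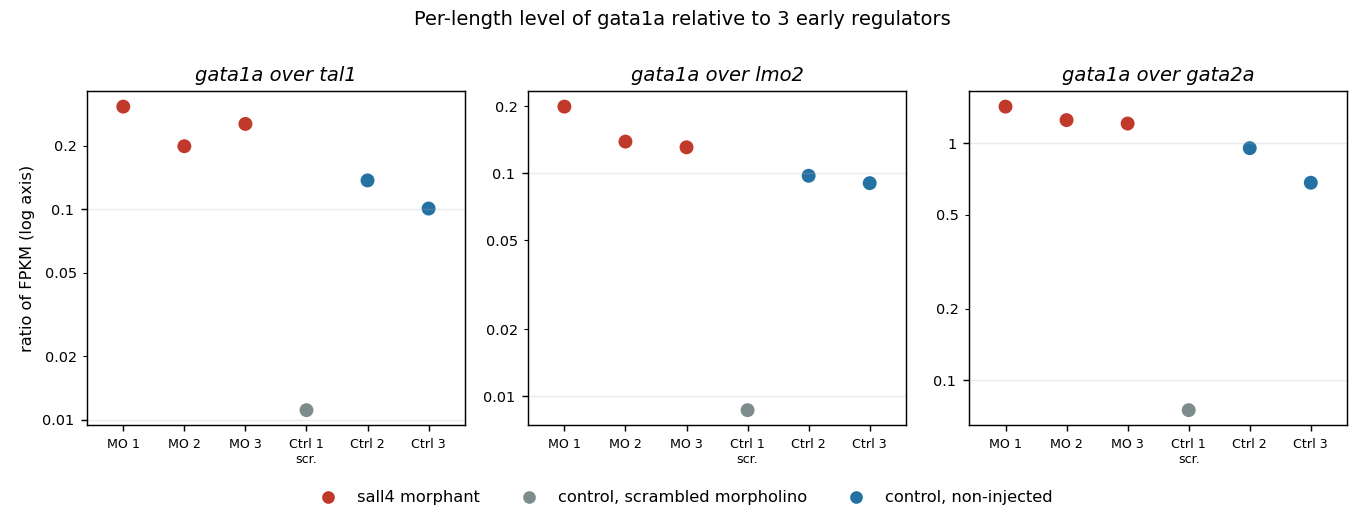
Ratio of the deposited FPKM of gata1a to that of tal1, lmo2 and gata2a in each library (log axes). The 3 morphants lie highest, the 2 non-injected controls below them and the scrambled control lowest in each panel, with gata1a over tal1 between 0.199 and 0.308 in morphants, against 0.0111 in the scrambled control.

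Ratios among the erythroid genes differed in how far they varied. The ratio of drl to gata1a in FPKM was 1.73, 2.24 and 1.71 in morphants, against 2.04 in the scrambled control and 1.77 and 1.03 in the non-injected controls. The ratio of alas2 to gata1a was 0.369, 0.483 and 0.330 in morphants, against 1.06 in the scrambled control and 0.368 and 0.324 in the non-injected controls. In both ratios the morphants overlapped the non-injected controls, and for alas2 the scrambled control stood above all others. The ratio of slc4a1a to gata1a was 0.0884, 0.0619 and 0.0964 in morphants. It was 0.0368 in the scrambled control and 0.0417 and 0.0578 in the non-injected controls. Every morphant was above every control, with morphant 2 close to control 3. The scrambled control had 1 read of slc4a1a and 16 of gata1a, so its ratios in this paragraph rest on few reads. They too are given without a test. The ratio of klf17 to gata1a was 5.06, 6.04 and 4.97 in morphants, against 23.5 in the scrambled control and 8.36 and 6.20 in the non-injected controls. Here every morphant was below every control, but morphant 2 only narrowly below control 3, and this ratio was not tested either.

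Levels per length ranged over more than 2 orders of magnitude. In morphants the FPKM averaged 61.5 ± 17.6 for lmo2, 52.3 ± 24.3 for klf17, 37.8 ± 11.9 for tal1, 18.3 ± 4.32 for urod, 18.2 ± 7.93 for drl, 9.97 ± 5.17 for gata1a, 7.52 ± 3.21 for gata2a, 3.81 ± 1.77 for alas2, 0.848 ± 0.515 for slc4a1a and 0.253 ± 0.110 for nfe2 (SD, n = 3). In controls it averaged 51.1 ± 4.46 for lmo2, 40.8 ± 7.72 for tal1, 27.4 ± 16.4 for klf17, 12.1 ± 1.04 for urod, 5.99 ± 1.18 for gata2a, 4.95 ± 4.01 for drl, 3.47 ± 2.65 for gata1a, 1.297 ± 0.759 for alas2, 0.171 ± 0.141 for slc4a1a and 0.150 ± 0.081 for nfe2 (SD, n = 3). In controls the precursor genes lmo2 and tal1 were the most abundant, and in morphants klf17 came between them. In morphants neighbours in this order lay further apart than either SD at tal1 and urod, drl and gata1a, gata2a and alas2, alas2 and slc4a1a, and slc4a1a and nfe2. In controls this held for lmo2 and tal1, urod and gata2a, and alas2 and slc4a1a, and the other neighbours did not differ beyond their SD. The control SDs include the low scrambled library. In the non-injected controls gata1a (4.99 and 5.01 FPKM) lay above alas2 (1.84 and 1.62 FPKM). These SDs are between libraries and do not compare genes within a library. In every morphant klf17 lay above tal1 and gata1a above gata2a. In every control drl lay above gata1a. The order of the other neighbours within their SD changed between libraries. Over the non-injected controls alone, drl (mean 7.01 FPKM) came above gata2a (6.30 FPKM).

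Profiles over the libraries were compared among the 9 tested genes. Likeness was measured as the root mean square difference between log2 CPM profiles over the 6 libraries, each centred on its own mean. A small value means that 2 genes go up and down together by the same amount, or that both are nearly flat. From gata1a the difference was 0.35 for drl, 0.38 for slc4a1a, 0.58 for alas2 and 0.73 for klf17, which placed them at ranks 7, 14, 30 and 46 among the 17802 other tested genes. It was 1.34 for urod, 1.42 for gata2a, 1.44 for lmo2 and 1.56 for tal1. Among themselves lmo2, gata2a and tal1 differed by 0.16 to 0.25. The gene urod was not far from them, at 0.26 from lmo2, 0.31 from gata2a and 0.39 from tal1. These profiles varied little, and ranks among all genes were computed from gata1a only. Outside the 10 genes and clone names, the 5 nearest to gata1a were cahz, encoding a red cell carbonic anhydrase (0.30), the repressor gene gfi1aa (0.31), 1 of the 2 rows of the embryonic globin hbae1.3 (0.35), the ferrireductase gene steap3 (0.35) and drll.2 (0.35). With 6 libraries, 1 of them far below the rest, this likeness is a description only.

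**Figure D5:**
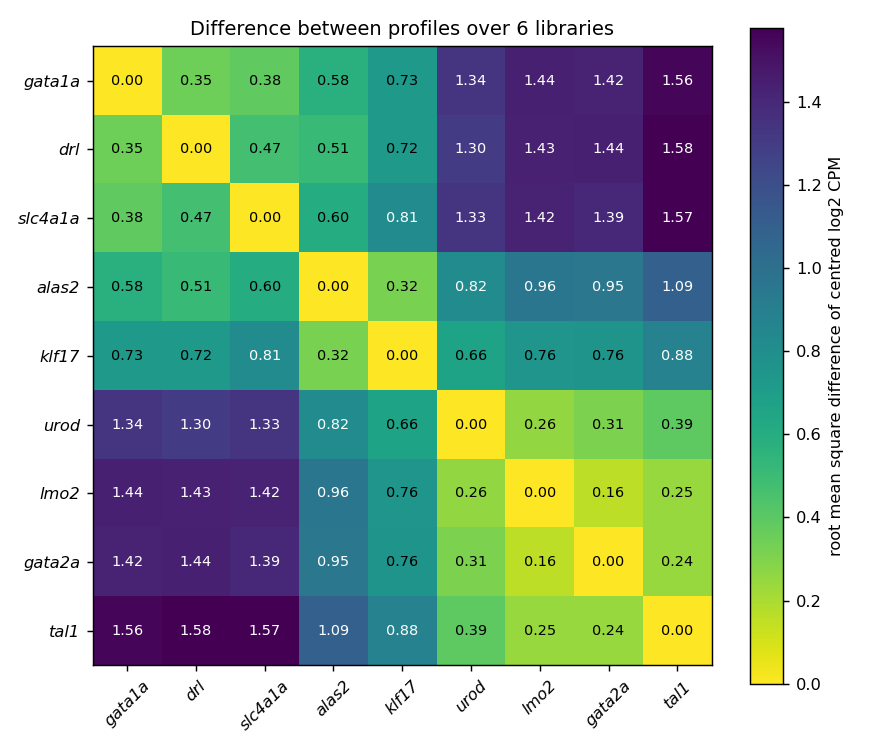
Root mean square difference between the centred log2 CPM profiles of each pair of the 9 tested genes over 6 libraries (darker is less alike). The genes gata1a, drl and slc4a1a differ by 0.35 to 0.47, and lmo2, gata2a and tal1 by 0.16 to 0.25. From lmo2, gata2a and tal1 the gene urod differs by 0.26 to 0.39.

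Other genes of the programme were taken from lists of known genes. For globins, 10 of the 15 rows found were tested, with a median log2 fold change of 2.05. By edgeR 0 passed (9 higher and 0 lower at an unadjusted p under 0.05, against 4.47% and 5.19% of all tested genes), and DESeq2 called 2 higher, against 0.928%. Over all libraries the edgeR adjusted p was 0.33 for hbbe2, 0.38 for hbae5 and 0.40 for hbae3. Without morphant 2 it was 0.027, 0.030 and 0.046 in the same order, in a fit that called 1534 of 18125 tested genes. The summed level of all 15 rows was 3908, 806.1 and 1801 CPM in morphants 1 to 3, against 81.4 CPM in the scrambled control and 760.3 and 638.5 CPM in the non-injected controls. The scrambled control was lowest, as for gata1a. Copies of globin genes are so alike in sequence that reads may be assigned to the wrong one.

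Among the other blood transcription factors 24 of 28 found were tested, with a median of 0.05. By edgeR and by DESeq2 0 passed. At an unadjusted p under 0.05 edgeR had 1 higher and 1 lower, against 4.47% and 5.19% of all tested genes. The higher one was myb, a regulator of blood progenitors, at 21.2, 20.9 and 11.5 CPM in morphants, against 1.64 CPM in the scrambled control and 9.94 and 7.85 CPM in the non-injected controls (log2 fold change 1.46, edgeR adjusted p = 0.50, SE 0.60). The lower one was npas4l, the gene upstream of tal1 and etv2 in blood and vessel precursors, at 13.7, 30.3 and 15.3 CPM in morphants, against 56.6 CPM in the scrambled control and 28.8 and 54.5 CPM in the non-injected controls (−1.24, edgeR adjusted p = 0.40, SE 0.41). Without morphant 2 the edgeR adjusted p of npas4l was 0.026. The groups of npas4l overlapped, with morphant 2 above control 2, and unlike gata1a it was highest in the scrambled control.

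Of the iron and heme handling genes 23 were tested, with a median of 0.33; 0 passed by edgeR (3 higher and 0 lower at an unadjusted p under 0.05, against 4.47% and 5.19% of all tested genes), and DESeq2 called 1 higher, the iron transporter gene slc11a2 (adjusted p = 0.016), against 0.928%. It had 132.9, 122.9 and 102.7 CPM in morphants, against 51.4 CPM in the scrambled control and 48.9 and 64.2 CPM in the non-injected controls, with a log2 fold change of 1.12 (edgeR adjusted p = 0.22, SE 0.26, and adjusted p = 0.029 without morphant 2). In the scrambled control slc11a2 lay between the non-injected controls. The ferrireductase gene steap3 had 6.57, 1.96 and 4.61 CPM in morphants, against 0.0965 CPM in the scrambled control and 1.57 and 1.39 CPM in the non-injected controls (2.07, edgeR adjusted p = 0.47, SE 0.80).

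Of the red cell membrane and enzyme genes, slc4a1a included, 20 were tested, with a median of 0.47; 0 passed by edgeR (6 higher and 2 lower at an unadjusted p under 0.05, against 4.47% and 5.19% of all tested genes), and DESeq2 called 2 higher, blf and aqp1a.1, against 0.928%. The gene blf stood on this list although it is a zinc finger gene known from zebrafish blood formation, not a membrane or enzyme gene. It had 77.4, 99.7 and 59.5 CPM in morphants, against 4.30 CPM in the scrambled control and 22.9 and 13.7 CPM in the non-injected controls. Its log2 fold change was 2.53 (edgeR adjusted p = 0.21, SE 0.56, and DESeq2 adjusted p = 0.0012). The water channel gene aqp1a.1 had 14.1, 1.45 and 4.16 CPM in morphants, against 0.241 CPM in the scrambled control and 0.935 and 0.782 CPM in the non-injected controls (3.29, edgeR adjusted p = 0.29, SE 0.87, and DESeq2 adjusted p = 0.0035). Without morphant 2 the edgeR adjusted p was 0.036 for blf and 0.017 for aqp1a.1. Without control 1, 2 or 3 it was 0.76, 0.42 and 0.88 for blf, and 0.93, 0.44 and 0.93 for aqp1a.1. Of the erythropoietin receptor and cytokine genes 12 were tested with a median of 0.11, and 0 passed by edgeR or DESeq2. At an unadjusted p under 0.05 edgeR had 2 higher and 0 lower, against 4.47% and 5.19% of all tested genes.

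Marker genes of other cells in the tissue were read beside these values. The 17 tested endothelial genes had a median of 0.06. All 18 found summed to 122.2, 135.7 and 103.4 CPM in morphants, against 117.2 CPM in the scrambled control and 111.0 and 125.7 CPM in the non-injected controls. By edgeR 0 of the 17 passed (3 higher and 1 lower at an unadjusted p under 0.05, against 4.47% and 5.19% of all tested genes), and DESeq2 called 1 higher, mrc1a (adjusted p = 0.019), against 0.928%. The vessel and blood precursor gene etv2 had 110.4, 81.2 and 83.5 CPM in morphants, against 101.8 CPM in the scrambled control and 95.6 and 123.9 CPM in the non-injected controls, so the scrambled library lay between the non-injected ones.

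The 15 myeloid markers summed to 284.6, 126.0 and 266.6 CPM in morphants, against 147.8 CPM in the scrambled control and 276.0 and 188.3 CPM in the non-injected controls. Most of this came from cebpb, cebpa and nccrp1, which other tissues may also express, while mpeg1.1, lyz and spi1a had 0 reads in all 6 libraries. In 8 tested members the median was 0.29, and 0 passed by edgeR. At an unadjusted p under 0.05 edgeR had 1 higher and 0 lower, against 4.47% and 5.19% of all tested genes. DESeq2 called 1 higher, the myeloperoxidase gene mpx (adjusted p = 3.8e-06), against 0.928% of genes. It had 185, 120 and 90 reads in morphants 1 to 3, against 0 in the scrambled control and 9 and 20 in the non-injected controls, and its edgeR adjusted p was 0.20 (0.021 without morphant 2).

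The 12 pronephros and intermediate mesoderm genes (10 tested, median 0.13) summed to 135.7, 159.4 and 114.7 CPM in morphants, against 215.2 CPM in the scrambled control and 149.0 and 193.0 CPM in the non-injected controls. By edgeR and DESeq2 0 passed. At an unadjusted p under 0.05 edgeR had 0 higher and 2 lower, against 4.47% and 5.19% of all tested genes. Within that list single genes, chosen after their values were seen, were low in the scrambled library. The kidney tubule gene slc12a3 had 32.6, 12.7 and 12.7 CPM in morphants, against 0.0483 CPM in the scrambled control and 8.12 and 8.41 CPM in the non-injected controls. The lateral mesoderm gene hand2 had 7.82, 1.96 and 5.51 CPM in morphants, against 0.241 CPM in the scrambled control and 2.36 and 3.94 CPM in the non-injected controls. The early kidney gene hnf1ba had 16.1, 26.5 and 17.9 CPM in morphants, against 46.5 CPM in the scrambled control and 34.1 and 38.6 CPM in the non-injected controls. Like sim1a it was highest in the scrambled control and lower in every morphant than in any control. Over all libraries the edgeR adjusted p was 0.36 for hnf1ba and 0.31 for sim1a. Without morphant 2 it was 0.027 for hnf1ba and 0.047 for sim1a. The part of these other tissues in the values of gata1a, drl, alas2 and slc4a1a was not tested.

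Other lists of cell types were set beside the blood genes, and by edgeR and by DESeq2 0 of their members passed. Over all libraries the edgeR adjusted p was 0.53 for krt4 (ectoderm and periderm) and 0.50 for prdm1a (hatching gland), both lower in morphants. Without morphant 2 it was 0.027 for krt4 and 0.046 for prdm1a. That fit called 1534 of 18125 tested genes. Medians of log2 fold change were −0.02 for 8 hatching gland genes, 0.24 for 6 genes of spinal V2b and Kolmer-Agduhr neurons, −0.05 for 15 genes of non-neural ectoderm and periderm, and 0.65 for 9 genes of anterior structures. At an unadjusted p under 0.05 edgeR had, in the same order, 0, 0, 0 and 1 of them higher. Lower were 1, 0, 1 and 0. Over all tested genes the shares were 4.47% higher and 5.19% lower. The neuron markers bear on tal1 and gata2a, which spinal neurons also express. All 13 summed to 60.8, 23.5 and 33.9 CPM in morphants, against 36.2 CPM in the scrambled control and 48.5 and 44.97 CPM in the non-injected controls, most of it from gata3, sox1a and sox1b. Of the GABA synthesis and transport genes, gad2 reached 2.299 CPM, in morphant 1, and gad1b and slc32a1 were below 0.5 CPM in every library. The part of such neurons in tal1 and gata2a was not tested. All 20 anterior genes, tested or not, summed to 147.2, 63.6 and 109.1 CPM in morphants, against 96.4 CPM in the scrambled control and 105.0 and 95.2 CPM in the non-injected controls. The sum was high in morphant 1, as gata1a was. Unlike gata1a, it was lowest in morphant 2, and in the scrambled control it lay between the non-injected controls. The part of anterior tissue in the blood genes was not tested.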

How the data were processed

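Whole-number counts and FPKM values per Ensembl gene were deposited by the authors for 6 libraries. Names found in the submitters' processing notes are STAR 2.7.10a, DESeq2 1.38.3 and, as genome build, GRCz11, with no roles given; libraries were strand-specific and polyadenylated, per the labels. How reads were counted, with which strand setting and gene annotation, is not given in the sources used here. The deposited FPKM equal the counts over a gene length and 1 scale per library, as checked from their ratios.

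Counts were filtered with filterByExpr (17803 genes kept) and scaled by TMM. The main test was edgeR's quasi-likelihood test (edgeR 4.0.16, R 4.3.3), two-sided, with the group as the only model term; the standard error is the log2 fold change over the square root of F. Alternatives were DESeq2 1.42.0, limma 3.58.1 on log2(FPKM + 1) and log2(FPKM + 0.1), a replicate block, other scalings and filters, each kind of control alone, removal of a length trend (lowess, span 0.3) and each library left out. The fits were tested on simulated data. No row lacked a gene, and in every pair of libraries 871 or more genes were over 2-fold apart. What sampling noise alone would give was not computed. Of 238 listed symbols 223 were in the file. Profiles use log2 CPM (prior count 2), and intervals are 95% Clopper-Pearson intervals on read counts. The 10 genes and the lists were chosen with earlier results of these data known. Genes named were the 10, the 3 with the smallest p in each list as far as the text needs them, the whole heme pathway and the 5 nearest to gata1a among genes whose average log2 CPM was 1 or more; others are said to be chosen after their values were seen, which also holds for etv2, he1.1, drll.3, tbxta and the markers quoted as reads or as below a level. Figures were drawn with matplotlib 3.10.9.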

Additional observations from a re-analysis of the deposited data

How the results depend on the processing

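Of the 9 tested genes 0 passed the adjusted p threshold in any of the 17 alternatives. Among these, leaving out control 1 and using the non-injected controls alone are the same fit, counted under both names. Over the 17 alternatives the adjusted p ranged from 0.051 to 0.99 for slc4a1a, from 0.072 to 0.99 for alas2, from 0.076 to 0.99 for drl and from 0.13 to 0.99 for gata1a. For gata1a the log2 fold change ranged from 0.98 to 4.62, for drl from 1.36 to 4.47, for alas2 from 1.07 to 3.15, for klf17 from 0.48 to 2.47, for urod from 0.41 to 0.76 and for slc4a1a from 0.63, on log2(FPKM + 1), to 5.67. The highest values of these 6 genes came from the scrambled control alone. The log2 fold change of tal1 reversed against the scrambled control alone (0.065) and, with 1 library left out, ranged from −0.39 to 0.057 (0.057 without control 3 and 0.034 without morphant 3). With 1 library left out that of gata2a ranged from −0.062, without morphant 1, to 0.52, and that of fech from −0.15, without morphant 2, to 0.64. The cause was not tested.

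The median of the 9 genes moved to 2.47 against the scrambled control alone and, with 1 library left out, ranged from 0.48 without morphant 1 to 1.36 without control 2. It was 0.52 without the scrambled control.

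The count of genes called over the whole table, 5 in the main comparison, was 0 with a replicate block, 1 on library totals, 28 with no filter, 336 by DESeq2, 11 on log2(FPKM + 1), 16 on log2(FPKM + 0.1), 20 with the length trend removed, and 0 against either kind of control alone (865 at an unadjusted p under 0.05 for the non-injected, 605 for the scrambled). With 1 library left out it ranged from 0 to 1534, the highest without morphant 2. Deviations of same-numbered libraries had correlations of −0.29, −0.10 and 0.16, and not every library correlated best with its own number. With so few libraries these values cannot show whether same-numbered libraries shared a clutch or day, which the labels do not say. The block is therefore not known to be a paired analysis. The low counts of nfe2, and of slc4a1a in the scrambled control, limit what could be detected.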
